A study of Mus musculus with 8 samples.

Results

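Lymphocytes in the kidney were followed through 8 genes that mark T cells and B cells: Ptprc, Cd3e, Cd3g, Cd4, Cd8a, Cd79a, Cd79b and Ms4a1. These were chosen by name from a fixed list, with earlier results of these data known. They were measured by 12 probes among the 41174 on the array, and are 8 of the 18217 genes that could be named there. Of the 8, Ptprc, Cd3e, Cd3g, Cd8a, Cd79b and Ms4a1 were detected on enough arrays to be tested, and Cd4 and Cd79a were detected on none. None of the 6 tested genes passed an adjusted p of 0.05 between genotypes, and 1, Cd8a, was lower at an unadjusted p under 0.05.

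T cells recognise antigen through a receptor that signals inside the cell by way of the CD3 chains, with CD4 or CD8 as co-receptor for MHC class II or class I. B cells use surface immunoglobulin, which signals through the CD79A and CD79B chains, and carry CD20, the product of Ms4a1. Ptprc encodes CD45, a tyrosine phosphatase on the surface of all nucleated blood cells, and so marks leukocytes of every kind. A healthy kidney holds few lymphocytes, and they collect in its interstitium when the organ is injured or inflamed.

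Total RNA came from kidneys of mice aged 8 weeks, whose mixed background came from C57BL/6J and 129Sv/J, with 1 array per mouse. The 4 NEKO mice (2 females and 2 males) were Keap1-/-::Nrf2Flox/Flox::K5-Cre, so that Keap1 was absent from the whole body and Nrf2 was deleted only where the Keratin5 promoter drives Cre, in squamous epithelium. The 4 controls were littermates with 1 intact copy of Keap1: 3 were K1Cre (Keap1+/-::Nrf2Flox/Flox::K5-Cre; 1 female and 2 males) and 1 female was K1 (Keap1+/-::Nrf2Flox/Flox). All 8 mice carried the floxed Nrf2 alleles, and no group had wild-type Keap1. Blood cells of NEKO mice therefore lacked Keap1 as well, while those of the controls were heterozygous. The question asked here is whether RNA of lymphocytes differed between NEKO and control kidneys.

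Every level below is the log2 processed signal of a probe minus the 75th percentile of its array. Mice are compared only by levels of the same probe. Different probes are set against each other only to rank the probes of a gene, in summed lists, and for the lowest detected level. A difference of 1 on this scale is a doubling. A probe is called detected where the scanner software marked it as well above background. Keap1, the deleted gene, was at 0.20 ± 0.17 (SD, n = 4) in NEKO kidneys and at 1.84 ± 0.07 (SD, n = 4) in controls, a difference of -1.63 (standard error 0.10). Between 61.7% and 65.7% of probes were detected on each array, with the ranges of the groups overlapping, and no spot was saturated. All 14 kidney tubule and glomerulus genes of the marker list were detected in enough arrays to be tested, and their summed level was between 646 and 801 times the 75th percentile in controls and between 698 and 721 times in NEKO mice. Slide 1 carried all females and slide 2 all males, which means that slide and sex cannot be told apart. On each slide the controls took positions 1 and 2 and the NEKO mice positions 3 and 4, so position and genotype cannot be told apart either. With 4 arrays a group and 2 in each sex, the number of arrays limits the precision.

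The 2 genes whose pattern is described at most length below are Cd3g and Cd8a, and the 250 bases before the start of each are shown 5′ to 3′ on the strand of the gene, as RefSeq gives them on GRCm38.p6. Cd3g lies on the minus strand, with the window at chr9:44980432-44980681, and Cd8a on the plus strand, at chr6:71373177-71373426. Capitals mark matches, on either strand, to any of the searched motifs.
Cd3g: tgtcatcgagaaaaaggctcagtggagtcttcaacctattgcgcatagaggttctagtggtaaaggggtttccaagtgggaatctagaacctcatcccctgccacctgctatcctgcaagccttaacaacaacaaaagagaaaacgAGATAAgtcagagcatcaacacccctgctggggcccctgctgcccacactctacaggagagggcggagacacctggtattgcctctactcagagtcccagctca
Cd8a: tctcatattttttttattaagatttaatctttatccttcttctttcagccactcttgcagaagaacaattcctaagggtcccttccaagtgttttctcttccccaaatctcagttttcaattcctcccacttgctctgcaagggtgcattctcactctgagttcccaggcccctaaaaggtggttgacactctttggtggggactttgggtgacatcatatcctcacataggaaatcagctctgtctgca
The first motif was the core of the antioxidant response element, TGACNNNGC, which Nrf2 binds with its small MAF partners. The others were short forms of motifs of lymphoid transcription factors, with TGTGGT taken for the RUNX factors and AGATAA for the GATA factors. For the ETS factors it was GGAAGT and for the basic helix-loop-helix factors that bind the E-box it was CAGCTG. The window of Cd3g held 1 match, to the GATA motif, 104 bases before the start, and that of Cd8a held none. Of all 32851 promoter windows cut to the same length, 9.99% held the GATA motif and 10.2% the antioxidant response element core, 14% the RUNX, 19.7% the ETS and 13% the E-box motif. A match is a description of these letters and not a binding site. Windows were given for 5 of the 8 genes. Among those not shown, 1 of the 2 windows of Ptprc held the antioxidant response element core, 57 bases before the start. That window also held a GATA match, and windows of Ptprc, Cd3e and Cd79a held ETS matches.

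The T cell receptor genes Cd3g and Cd3e were detected, and neither was called different between genotypes. Cd3g (NM_009850), a CD3 chain, was detected on all 8 arrays. Its level was -4.25 and -4.15 in the control females, -4.40 and -4.82 in the control males, -4.81 and -4.87 in the NEKO females and -3.55 and -3.27 in the NEKO males. The NEKO males were the highest of the 8 mice and a NEKO female was the lowest, with 1 control male at nearly the same level. Over both sexes Cd3g was at -4.13 ± 0.83 (SD, n = 4) in NEKO mice against -4.41 ± 0.30 (SD, n = 4) in controls, a difference of 0.28 (95% interval -0.58 to 1.14, adjusted p = 0.70 from limma).

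Cd3e (NM_007648), the CD3 chain most often used to identify T cells, was detected on 7 arrays. The spot of control replicate 4, a male, was marked as an outlier by the scanner software and left out, so the fit for Cd3e rests on 3 controls. Its level was -4.09 and -4.43 in the control females, -4.43 in the remaining control male, -4.62 and -4.30 in the NEKO females and -4.47 and -3.30 in the NEKO males. A single NEKO male stood above the rest, and the other NEKO mice lay among or just below the controls. The difference was 0.10 (95% interval -0.70 to 0.89, adjusted p = 0.89 from limma). Without NEKO replicate 6, that male, it was -0.15, and without control replicate 7, which leaves no control male with a value, it was -0.20.

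**Figure D1:**
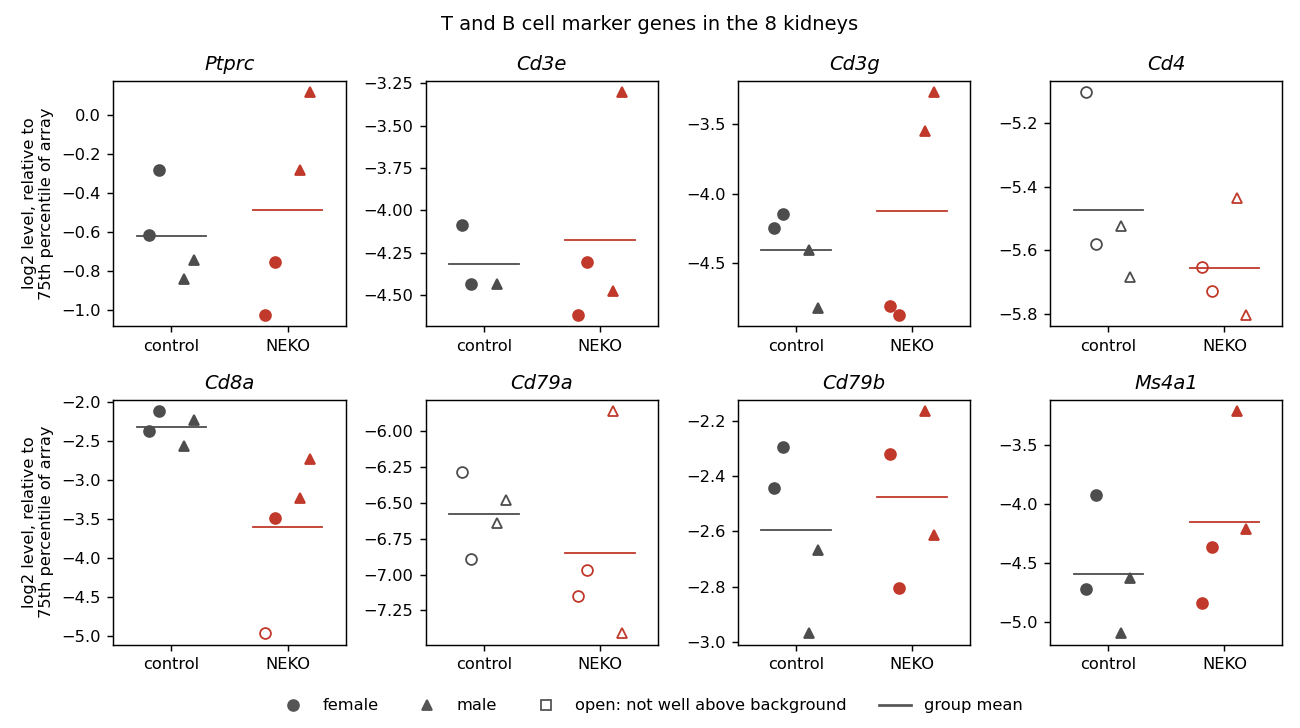
Level of each of the 8 genes in each kidney, in log2 units above or below that array's 75th percentile, from its probe with the highest mean. Circles are females, triangles males, open symbols arrays on which it was not detected, and lines the group means; each panel has its own scale, and Cd3e has no value for 1 control male. The NEKO males are above the control males for Ptprc, Cd3g, Cd79b and Ms4a1, and the NEKO mice are below all controls only for Cd8a.

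Of the co-receptors, Cd4 (NM_013488) was detected on no array, with levels between -5.80 and -5.10 and no order that can be read from them. Helper T cells were thus not measurable through Cd4 at this signal.

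Cd8a (NM_001081110 for its brightest probe), the alpha chain of CD8, was the only tested gene whose groups did not overlap. Its level was -2.37 and -2.12 in the control females, -2.57 and -2.24 in the control males, -4.96 and -3.49 in the NEKO females and -3.24 and -2.74 in the NEKO males. Every NEKO mouse was below every control mouse, and the K1 female without Cre lay within the range of the K1Cre mice. The mean was -3.61 ± 0.96 (SD, n = 4) in NEKO mice against -2.33 ± 0.19 (SD, n = 4) in controls. This is a difference of -1.28 (standard error 0.41, 95% interval -2.24 to -0.32), or 0.411 of the control level, lower in 4 of 4 NEKO mice. The unadjusted p was 0.016 and the adjusted p 0.19 from limma, so Cd8a was not called, and the two-sided exact permutation test gave p = 0.0286, the smallest that 4 mice against 4 allow. Across all 19593 features tested, every NEKO mouse was below every control mouse in 5.39%. NEKO replicate 2, a female, was the lowest and the only mouse in which this probe was not detected. Without it the difference was -0.85 (adjusted p = 0.15 from limma), in a range of -1.52 to -0.78 and of adjusted p from 0.072 to 0.47 over the alternatives tried, the lowest p being an unadjusted one.

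The other probes of Cd8a did not all show this. A dimmer probe for the same transcript was detected on 2 control and 2 NEKO arrays, and its level was -5.16 and -4.74 in the control females, -5.11 and -4.92 in the control males, -6.61 and -6.10 in the NEKO females and -4.87 and -4.49 in the NEKO males. It was detected in both NEKO males, in control replicate 7, a male, and in control replicate 8, a female, but in neither NEKO female. No order or difference is read from the arrays without detection. Among the 4 with detection the NEKO males were not both below the controls. The remaining probe, for another Cd8a transcript (NM_009857), was detected on no array. Cd8b1, which encodes the beta chain that pairs with CD8A on most cytotoxic T cells, had no named probe and was not analysed here.

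**Figure D2:**
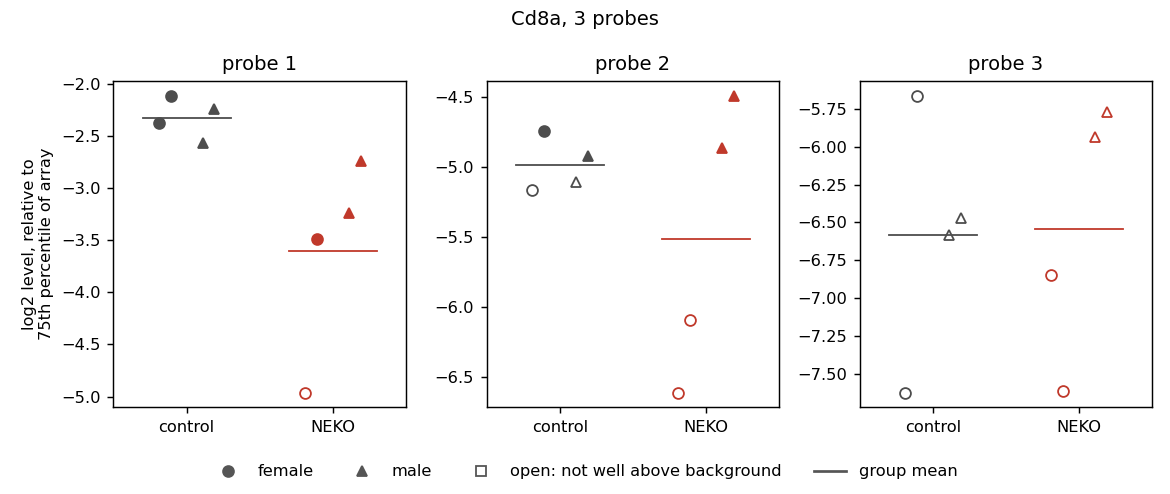
Level of Cd8a in each kidney from each of its 3 probes, from the brightest (probe 1) to the dimmest (probe 3), in log2 units above or below that array's 75th percentile. Symbols are as for the plot of the 8 genes. With probe 1 all NEKO mice are below all controls, probe 2 was detected in both NEKO males and 2 controls, and probe 3 was detected on no array.

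Among the B cell genes, Cd79a (NM_007655), a signalling chain of the B cell receptor, was detected on no array, with levels between -7.41 and -5.86. Its partner Cd79b (NM_008339) was detected on all 8, at -2.44 and -2.30 in the control females, -2.97 and -2.67 in the control males, -2.32 and -2.81 in the NEKO females and -2.16 and -2.61 in the NEKO males. The groups overlapped over nearly their whole range. Its difference was 0.12 (95% interval -0.33 to 0.57, adjusted p = 0.76 from limma), which was -0.0033 without control replicate 4 and -0.03 without NEKO replicate 5.

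Ms4a1 (NM_007641), which encodes CD20, was also detected on all 8 arrays. Its level was -4.72 and -3.92 in the control females, -5.09 and -4.63 in the control males, -4.84 and -4.36 in the NEKO females and -3.21 and -4.21 in the NEKO males. The highest mouse was a NEKO male and the lowest a control male, with the females of both groups between them. The difference was 0.43 (95% interval -0.48 to 1.35, adjusted p = 0.57 from limma).

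Ptprc (NM_011210) was detected on all 8 arrays with its brightest probe. Its level was -0.62 and -0.28 in the control females, -0.84 and -0.74 in the control males, -1.03 and -0.75 in the NEKO females and -0.28 and 0.12 in the NEKO males. Both NEKO males were above both control males and both NEKO females were below both control females. The NEKO mean over both sexes was -0.49 ± 0.51 (SD, n = 4) and the control mean -0.62 ± 0.24 (SD, n = 4), a difference of 0.13 (95% interval -0.46 to 0.73, adjusted p = 0.80 from limma). A second probe, at a difference of 0.26, gave -0.22 in females and 0.73 in males, and the last of its 3 probes was detected on no array. With the second probe the females of the groups overlapped, with NEKO replicate 3 at -4.16 and control replicate 1 at -4.48.

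Counted together, none of the 6 tested genes was called higher or lower by limma at an adjusted p under 0.05, against 0.225% of all features tested. At an unadjusted p under 0.05 limma gave 0 of the 6 higher and 1 lower, Cd8a, against 7.37% and 10.6% of all features and 18% either way. The methods' comparison without adjustment also gave none of the 6. The median difference was 0.13 over the 6 genes and -0.03 over all features. The intervals of Ptprc, Cd3e, Cd3g, Cd79b and Ms4a1 include no difference, and their upper ends lay between 1.49 times the control level, for Cd79b, and 2.55 times, for Ms4a1. In bulk RNA of the kidney, fewer cells of a type and less RNA per cell cannot be told apart.

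The comparison was then made within each sex. A difference of lymphocyte genes between the sexes was known when the genes were chosen, so the shares below are a description. In all 6 tested genes the difference between NEKO and control mice was higher in males than in females, by a median of 1.27 on the log2 scale, against a median of 0.00 over all features, of which 50.3% had the higher difference in males. Both comparisons are of 2 mice against 2 on the same slide, except for Cd3e, where control replicate 4, a male, had no value. Cd3g had a difference of -0.64 in females and 1.20 in males. The difference between these, 1.84 (standard error 0.24, 95% interval 1.25 to 2.43), had an unadjusted p of 0.00024 and an adjusted p of 0.091 from limma's interaction term, so it was not called. With normexp background correction it was 0.78. Ptprc had -0.44 in females and 0.71 in males, 1.15 apart (standard error 0.27, 95% interval 0.49 to 1.81, adjusted p = 0.19 from limma). Read from its brightest probe, each of these 2 genes was below the controls in both NEKO females and above them in both NEKO males, which held for 3.56% of all features. Taken singly, both NEKO males were above both control males in 4 of the 6 genes, Ptprc, Cd3g, Cd79b and Ms4a1, against 24.1% of all features. Both NEKO females were below both control females in 3, Ptprc, Cd3g and Cd8a, against 25.2%.

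The other 4 genes leaned the same way with wider error. Ms4a1 had -0.28 in females and 1.15 in males, 1.43 apart (95% interval -0.02 to 2.87). Cd8a had -1.98 in females and -0.58 in males, 1.40 apart (95% interval -0.21 to 3.00). Its female value includes NEKO replicate 2, where the probe was not detected. Cd3e and Cd79b were 0.74 and 0.62 apart, with intervals that include 0. No member was called for the interaction, as against 0.0153% of all features. At an unadjusted p under 0.05 there were 2, against 10.5% of all features and 6.87% with the higher difference in males. Averaged over the genotypes, none of the 6 passed limma's test of males against females, at either an adjusted or an unadjusted p under 0.05. For comparison, 0.786% and 21.2% of all features passed these.

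**Figure D3:**
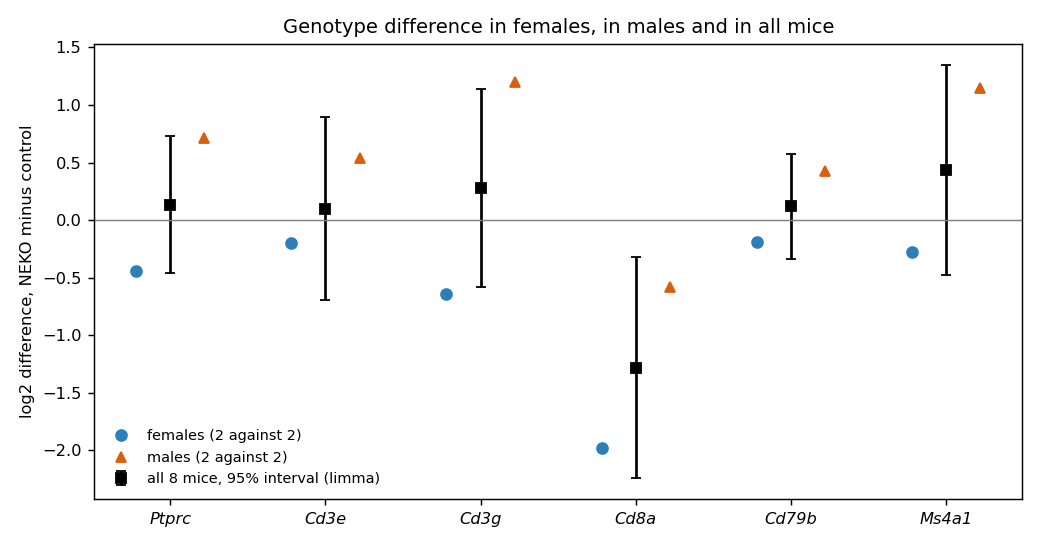
Log2 difference between NEKO and control kidneys for the 6 tested genes. Black squares with bars are the fit to all 8 mice with its 95% interval from limma, blue circles the difference in the 2 against 2 females and orange triangles that in the 2 against 2 males. For Cd3e, control replicate 4, a male, had no value and is left out. In every gene the male difference is the higher, and only for Cd8a is it below 0.

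Other lymphocyte genes were read from 4 lists of 90 genes in all, of which 88 had a named probe and 48 could be tested. None of the 48 was called by limma between genotypes. At an unadjusted p under 0.05, 2 were higher and 3 lower, against 7.37% and 10.6% of all features. The T cell list, of receptor, co-stimulatory and signalling genes, had 19 tested genes of 36, with a median difference of 0.17. Its 3 largest differences were those of Thy1 (1.03, adjusted p = 0.33 from limma), a surface glycoprotein that nerve and stromal cells also carry, Tcf7 (0.88, adjusted p = 0.28 from limma), a transcription factor of naive and memory T cells, and Cd27 (-0.87, adjusted p = 0.54 from limma), a co-stimulatory receptor. Tcf7 was detected on 1 control and 3 NEKO arrays, so its difference is against controls mostly without detection. Cd27 was detected on 2 arrays of each group, and its difference rests on control replicate 8, at -2.12, with all other mice between -5.81 and -4.79. Genes that define helper and regulatory subsets or activation, Foxp3, Ctla4 and Cd28, were detected on no array.

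The NK and cytotoxic list had 9 tested genes of 16, with a median difference of 0.09. The largest were those of Gzmb, a granzyme (0.70, adjusted p = 0.31 from limma), Klrb1c, the NK1.1 antigen (-0.55, adjusted p = 0.50 from limma), and Ctsw, a cathepsin of cytotoxic cells (0.51, adjusted p = 0.49 from limma). Klrb1c was detected on 3 control arrays and 1 NEKO array, so its difference is against NEKO mice mostly without detection. Ncr1 and Eomes were detected on no array.

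The B cell list had 12 tested genes of 28, with a median difference of -0.18. Fcmr, the receptor for the Fc part of IgM, had the largest difference, 1.63 (adjusted p = 0.15 from limma). It was followed by Pou2af1, a B cell coactivator (0.71, adjusted p = 0.42 from limma), which was detected on 2 control and 4 NEKO arrays, and Ltb, lymphotoxin beta (0.48, adjusted p = 0.62 from limma). Pax5, Cd22, Blk and Bank1, which also mark B cells, were detected on no array.

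Of the plasma cell list, 8 of 10 genes were tested, with a median difference of 0.16. Jchain, the joining chain of IgM and IgA, differed by 1.25 (adjusted p = 0.45 from limma), at -0.34 in females and 2.85 in males. Fkbp11, a chaperone of secretory cells that is not confined to plasma cells, had a difference of -0.59 (adjusted p = 0.058 from limma), not called. Sdc1, a proteoglycan that epithelial cells also carry, had a difference of 0.56 (adjusted p = 0.12 from limma), with every NEKO mouse above every control, as in 3.88% of all features.

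The lists were also compared within each sex. They too were chosen with a difference of lymphocyte genes between the sexes known. In the T cell list the difference between genotypes was higher in males for 19 of 19 genes, by a median of 1.73. A higher difference is not always one of larger size: for Cd3d it was -1.52 in females and 1.20 in males. For 15 of the 19 (78.9%) the interaction had an unadjusted p under 0.05, and none had an adjusted p under 0.05. The share at an unadjusted p under 0.05 was 10.5% of all features. In 9 of the 19 (47.4%) both NEKO females were below both control females and both NEKO males above both control males, against 3.56% of all features. Singled out after their values were seen, the T cell genes with the lowest interaction p were Zap70, the kinase that binds the phosphorylated CD3 complex (-0.55 in females and 1.11 in males, adjusted p = 0.062 from limma), and Il2rb, a chain of the interleukin 2 receptor (-1.01 and 1.20, adjusted p = 0.072 from limma). Next was Cd6, a surface receptor (-0.70 and 1.13, adjusted p = 0.091 from limma). Cd3d, the neighbour of Cd3g and a chain of the same complex, had -1.52 in females and 1.20 in males (adjusted p = 0.091 from limma).

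In the NK and cytotoxic list the difference was higher in males for 9 of 9 genes, by a median of 1.31, and 6 had an unadjusted interaction p under 0.05. Nkg7, a granule protein, had the lowest p of these, with -0.79 in females and 1.04 in males. In the B cell list the difference was higher in males for 10 of 12, by a median of 1.00. Of these genes 4 had an unadjusted p under 0.05, led by Ltb at -0.77 and 1.74. In the plasma cell list the difference was higher in males for 6 of 8, by a median of 0.36. There 1 (12.5%) had an unadjusted p under 0.05, near the 10.5% of all features. None of these genes had an adjusted p under 0.05.

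**Figure D4:**
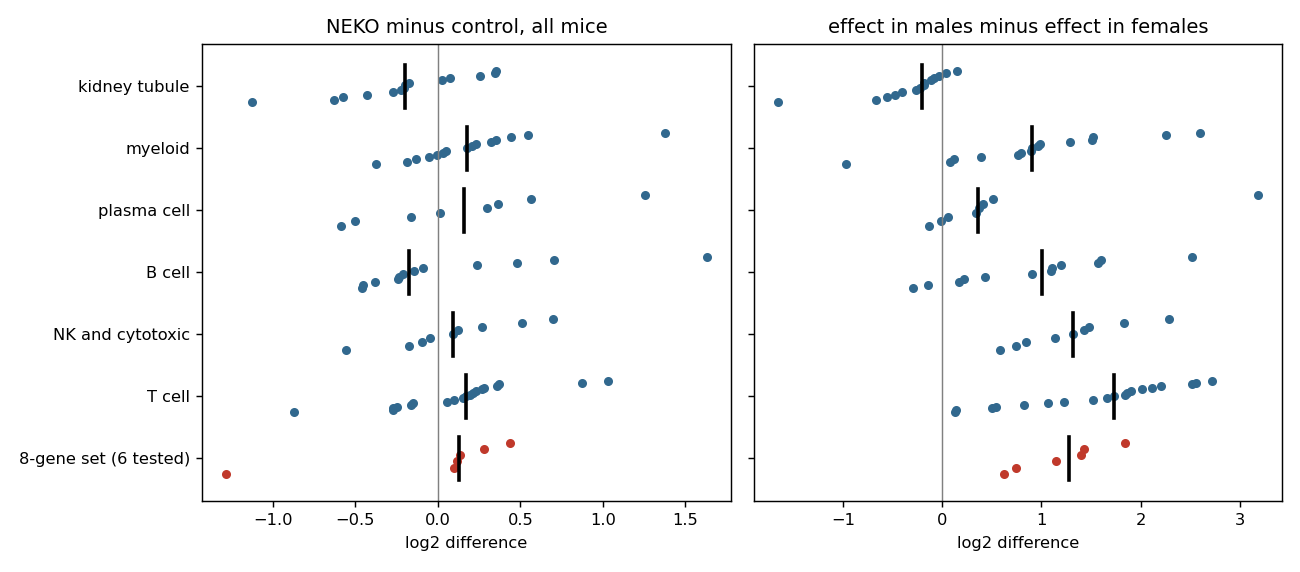
Log2 difference between NEKO and control kidneys over all mice (left) and the amount by which that difference was higher in males than females (right), with 1 point per tested gene and a black bar at the median of each list. On the left the medians lie between -0.20 and 0.17. On the right the T cell, NK and cytotoxic, and B cell lists have medians of 1.73, 1.31 and 1.00. Those of the plasma cell, myeloid and kidney tubule lists are 0.36, 0.90 and -0.20.

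Summed levels of the lists are given next, and no gene of the myeloid and neutrophil lists was called by limma for genotype or for its interaction with sex. At an unadjusted p under 0.05 the interaction gave 7 of 15 myeloid genes (46.7%) and 1 of 4 neutrophil genes (25%), against 10.5% of all features. Of these 7, Csf1r went the other way, with 0.29 in females and -0.67 in males, and the rest had the higher difference in males. The difference was higher in males by a median of 0.90 in the myeloid and 1.65 in the neutrophil list. Summed over its 19 genes, the T cell list was at 5.07 and 5.62 times the 75th percentile in the control females, 3.88 and 4.48 in the control males, 3.99 and 4.52 in the NEKO females and 7.35 and 7.72 in the NEKO males. The NEKO males were the highest mice. Gata3, a transcription factor that kidney epithelium also expresses, gave 31.5 to 50% of this sum and Cd3d 0.989 to 3.37%, so the sum is not a measure of T cell content. The myeloid list (15 of 16 genes tested) ranged from 9.99 to 12.3 in controls and from 9.83 to 15.9 in NEKO mice. The difference between genotypes was higher in males for 14 of its 15 genes. The neutrophil list, of which 4 of 10 genes were tested, was at 0.271 to 0.575 in controls, 0.394 to 0.595 in NEKO females and 1.68 to 6.77 in NEKO males. S100a9 alone gave 57.2 to 88.8% of the neutrophil sum, which is thus not a measure of neutrophil content. Elane was detected on no array. The perirenal fat list, 7 of 8 genes, ranged from 24.0 to 83.5 in controls and from 37.7 to 103 in NEKO mice. The groups overlapped in females, while the NEKO males, at 50.1 and 78.0, were above the control males, at 24.0 and 47.7. Fabp4 gave 56.2 to 91.9% of the fat sum. The part of fat in the male values of the lymphocyte genes was not tested. Myeloid cells also carry Ptprc, and their part in its values was not tested. Blnk, a B cell adaptor protein, and Cd74, the invariant chain of MHC class II, which other antigen-presenting cells express too, made up most of the B cell sum, at 36.7 to 62.4% and 27.7 to 49% of it.

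**Figure D5:**
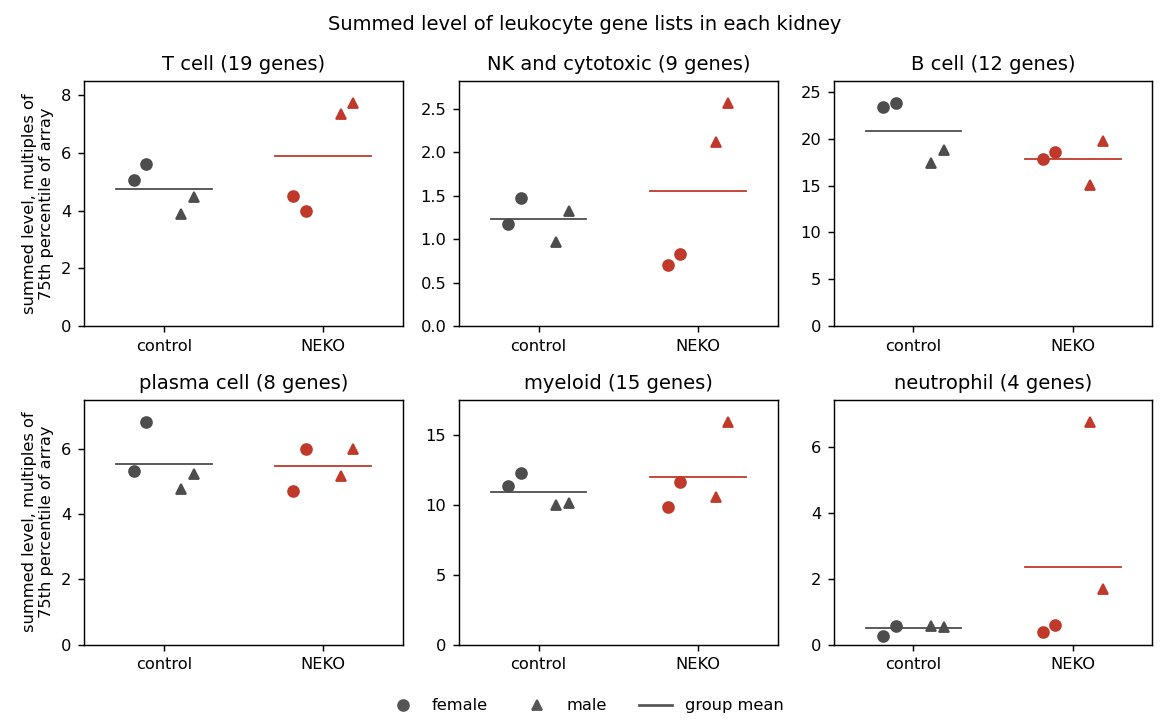
Summed level of each list of leukocyte genes in each kidney, as multiples of the 75th percentile of the array, for genes with a value on all arrays. Circles are females, triangles males and lines the group means; every vertical axis starts at 0. The NEKO males are the 2 highest mice in the T cell, NK and cytotoxic, and neutrophil lists. Ccl5 gave 49.1 to 67.9% of the NK and cytotoxic sum and S100a9 57.2 to 88.8% of the neutrophil sum.

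The genes whose pattern over the 8 arrays was most like the mean of the 6 tested genes, each first centred on its own mean, were found among 13514 named genes by Pearson's r. They were Arhgap25, a GTPase-activating protein (r = 0.98), Stk17b, a serine/threonine kinase (0.97), Map4k1, a kinase upstream of JNK (0.97), Selplg, the ligand of P-selectin (0.96), and Pilrb1, a paired immunoglobulin-like receptor (0.96). In all 5 the difference was below 0 in females and above 0 in males, for Arhgap25 -0.40 and 0.41 and for Selplg -0.53 and 0.78. The mean they were picked to resemble has the NEKO females lowest and the NEKO males highest. These signs therefore follow largely from the choice. The likeness is a description over 8 arrays, which share slides and sexes. Among the 6 genes themselves, Cd3g and Ptprc were the most alike (r = 0.90 over 8 arrays), and Cd3e and Cd79b the least (r = -0.38 over 7 arrays).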

How the data were processed

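Kidney RNA of 8 mice was hybridised to 1-colour (Cy3) Agilent arrays. The authors deposited Feature Extraction 10.7.3.1 files whose intensity values are background-subtracted and spatially detrended within each array, and a matrix of log2 values. In that deposited matrix 100% of 41079 probes' log2 values lay within 0.01 of those recomputed here after centring each probe on its median.

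Spots marked as outliers (73 to 172 per array) were left out and spots of 1 probe averaged. A probe needed 6 values and detection (the software's well-above-background mark) on 4 of the 8 arrays, and the brightest such probe stood for its gene. Probes were named through RefSeq accessions (GRCm38.p6): 26690 of 41174 matched. The array annotation is on mm9.

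Genotype was tested with sex as covariate in limma 3.58.1 (R 4.3.3), with Benjamini-Hochberg adjustment over 19593 features; the interaction with sex was a second model. The steps were tested on simulated data. Members, lists and alternatives were chosen with earlier results of these data known, among them the difference of lymphocyte genes between the sexes. Named genes were the members, the 3 largest differences of each lymphocyte list, called genes and the 5 most alike; any other gene was picked with its values in view. Mice are separate animals.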

Additional observations from a re-analysis of the deposited data

Results flagged for a closer look

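Cd3g and Ptprc had effects of genotype in opposite directions in the sexes, with both NEKO females below both control females and both NEKO males above both control males. For Ptprc this arrangement held with its brightest probe. With its second probe NEKO replicate 3, a female, at -4.16, was above control replicate 1, a female, at -4.48. The male effect was there the higher by 0.95 (adjusted p = 0.59 from limma). On the log2 scale, with the brightest probe of each gene, the male effect was the higher by 1.84 for Cd3g and 1.15 for Ptprc. With normexp background correction it was the higher by 0.78 and 1.04. Neither passed limma's interaction test after adjustment (adjusted p of 0.091 and 0.19, in ranges of 0.067 to 0.21 and of 0.15 to 0.47 over the alternatives tried). Of all features tested, 3.56% had the same arrangement of mice. A check of 11 groups of 4 mice marked no mouse as far from the rest of its group. Each group held both sexes, so the check says little about single mice, such as the NEKO male that stood above the rest for Cd3e.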

How the results depend on the processing

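No paired analysis was possible because the replicate numbers run from 1 to 8 over both groups and none is shared. None of the 8 genes was called for genotype under any alternative tried, including leaving out each mouse in turn (0 to 0 calls). The same held for the interaction and for sex under the alternatives run for them, which leave out the models without a sex term or an interaction, array weights, the methods' comparison and, for sex, the mean of the kept probes. Of the other lymphocyte genes, 0 were called with each mouse left out, and 1 was under normexp background correction, under the mean of the kept probes, under eBayes with trend and robust, and under array weights, which was Fkbp11 each time. Averaging over the sexes called 2, Fkbp11 and Thy1, and the methods' comparison without adjustment called 4, Fkbp11, Sdc1, Skap1 and Vpreb3. With each mouse left out the difference was -0.06 to 0.32 for Ptprc, -0.20 to 0.26 for Cd3e, 0.01 to 0.48 for Cd3g, 0.09 to 0.74 for Ms4a1 and -0.03 to 0.28 for Cd79b. The amount by which the male effect was higher was then 0.16 to 1.33 for Cd3e, 1.63 to 2.05 for Cd3g, 0.66 to 2.13 for Cd8a, 0.38 to 0.86 for Cd79b and 0.93 to 1.93 for Ms4a1. Under normexp it was 0.78 for Cd3g, 0.58 for Cd8a, 0.63 for Ms4a1 and 0.32 for Cd3e, in each less than with the reported setting. The difference between genotypes turned for Cd79b without control replicate 4 (-0.0033) or NEKO replicate 5 (-0.033), for Ptprc without NEKO replicate 6 (-0.060), and for Cd3e without NEKO replicate 6 (-0.15) or control replicate 7 (-0.20). In the T cell list, examined in this way after the data were seen, 15 of 19 genes had an unadjusted interaction p under 0.05. In 19 of 19 the difference was higher in males. With no filter on dim probes, which tests more genes, these were 24 and 31 of 35, and with each mouse left out, which tests 17 to 19, they were 11 to 14 and 17 to 19. Requiring detection on all 8 arrays left Cd3e and Cd8a untested. The causes were not tested. Signal over background limits Cd4 and Cd79a, which have no measured level here. Detected genes also came near it. Ms4a1 in control replicate 4 was at -5.09, where the lowest detected level on that array was -5.18. Cd3g in the NEKO females was at -4.81 and -4.87, where the lowest detected levels were -5.29 and -5.39.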
